A study of Mus musculus with 20 samples.

Results

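The comparison described here is that of LSK cells lacking both Bcor and Dnmt3a with LSK cells of WT mice. LSK cells are the lineage-negative, Sca1+, cKit+ fraction of the bone marrow (BM), which holds the haematopoietic stem cells and the earliest multipotent progenitors. The members were chosen by their labels: 2 Bcor-/-Dnmt3a-/- libraries and 3 WT libraries, 5 of the 20 libraries of the series, each from a different mouse. The study's figure legend gives 3 mice per genotype, whereas the labels hold 2 double mutant LSK libraries. All mice are labelled as strain C57BL/6, and the cells were sorted by flow cytometry before the RNA was sequenced. In the study, the floxed alleles were removed by Mx1-Cre, an interferon-inducible recombinase that is switched on by injection of pIpC and acts in many blood cells, not in stem cells alone. The study describes the double mutant mice of this comparison as leukaemic. The labels give neither age nor stage. The sample descriptions carry the word Cre for the mutant libraries and WT in its place for the WT libraries, and no label says whether WT mice received pIpC. Mouse and sort cannot be told apart as sources of the spread between the 2 double mutant libraries.

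BCOR is a corepressor that works with a variant Polycomb complex, PRC1.1, and DNMT3A is a de novo DNA methyltransferase. Both are known as brakes on self-renewal in blood stem cells and are mutated in myeloid leukaemia. Red cells arise from stem cells through megakaryocyte-erythroid progenitors (MEP). On this path GATA2 gives way to GATA1 and KLF1, and the genes of heme synthesis, the red cell membrane skeleton and the globins are switched on in turn, while stem cell regulators such as MEIS1, HLF and the HoxA factors are switched off.

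The values are FPKM, that is fragments counted per kilobase of a transcript and divided by the total mapped, compared as log2(FPKM + 1). Of 24315 genes in the table, 12082 passed a minimum of 1 FPKM for their mean across these 5 libraries and were tested with limma. Genes with a WT mean under 1 FPKM could pass only through the double mutant libraries. Their calls, and the list counts that hold them, follow in part from this filter. Genes named below for which this holds include Trim10, Fcmr, Fam132b, Epb4.2, Pax5, Ms4a1, Clec1b, Cdkn2a, Snora64 and several T cell markers. A gene was called when the unadjusted p was under 0.05 and the fold change above 1.5, and each fold change below is the double mutant minus WT value on the log2(FPKM + 1) scale with its SE, followed by the Benjamini-Hochberg adjusted p over all tested genes. This scale understates the change of genes with low FPKM. A second, stricter description asked in which genes both double mutant libraries lay above, or below, all 3 WT libraries by more than 1.5 fold. Library values are always given in the order replicate 1, 2 and 3 for WT and replicate 1 and 2 for Bcor-/-Dnmt3a-/-.

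The 3 WT libraries resembled each other closely, with Pearson's r across the tested genes between 0.974 and 0.979. The 2 Bcor-/-Dnmt3a-/- libraries did not, with r = 0.843 between them, a value not far above the 0.807 to 0.839 between double mutant and WT libraries. Genes are not independent replicates, so these are descriptions. The LSK library of double mutant replicate 1 also had r = 0.975 with the MEP library of the same mouse, while the other 9 pairs of LSK and MEP libraries in the series had 0.819 to 0.897, and replicate 2 had 0.858. The r of replicate 1 is as high as that between WT LSK libraries, so it is not certain from these values that its LSK library holds a sort distinct from its MEP library. Ly6a, the Sca1 gene that separates the gates, had 63.5 FPKM in its LSK and 17.8 FPKM in its MEP library, beside 0 to 0.790 FPKM in WT MEP, and Kit had 47.7 and 38.1 FPKM. Results are given for both double mutant libraries apart. LSK and MEP values come from separate tables, and how each was scaled is not given in the sources used here. The steps between the lowest FPKM values gave the other 4 LSK libraries 0.790 to 1.13 of the depth of WT replicate 1, while the absolute depth is unknown.

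Of the deleted genes, Dnmt3a RNA was lower in the double mutants. It had 19.8, 16.1 and 17.2 FPKM in WT and 10.4 and 10.9 FPKM in Bcor-/-Dnmt3a-/- LSK, a log2 difference of -0.68 ± 0.15 (adjusted p = 0.042). Bcor RNA had 32.4, 31.1 and 29.5 FPKM in WT and 24.01 and 37.4 FPKM in the double mutants, with overlapping groups and a log2 difference of -0.04 ± 0.21 (adjusted p = 0.90). A value for the whole gene also counts exons outside a deleted segment, so neither the Bcor nor the Dnmt3a level checks the genotype labels. The study describes the recombined Bcor transcript as very unstable and reports that PCR found none in LSK cells of Bcor-/- mice. Here Bcor RNA was listed in both double mutant libraries, and the reason was not tested.

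In all, 2944 of 12082 genes were called, 24.4% of those tested, with 1579 higher (13.1%) and 1365 lower (11.3%) in Bcor-/-Dnmt3a-/- LSK. This balance turned with the scaling, to 1337 higher and 1714 lower with quantile normalization and 1340 and 1667 with each library centred on its median. The counts in the gene lists below stand beside these shares. Both double mutant libraries stood above every WT library in 964 genes (7.98%) and below every WT library in 811 genes (6.71%), and 960 and 811 of these were called in the same direction. A larger number of genes left the WT range in 1 double mutant library alone. Replicate 1 alone was above in 729 genes (6.03%) and below in 591 (4.89%), and replicate 2 alone was above in 1101 (9.11%) and below in 937 (7.76%). In 182 further genes the libraries moved apart, with replicate 1 above and replicate 2 below WT in 79 genes and the reverse in 103. Leaving out WT replicate 1, 2 or 3 left 2256, 2476 and 2276 called genes, and leaving out double mutant replicate 1 or 2 gave 4720 and 3833, since the remaining double mutant library then adds no spread of its own. With the adjusted p in place of the unadjusted p, 1702 genes were called. Without WT replicate 1, 2 or 3 that number was 1, 241 and 22, and without double mutant replicate 1 or 2 it was 4355 and 3232, so the adjusted p values below hold for the fit of all 5 libraries and most calls by them are lost when a WT library is left out.

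**Figure D1:**
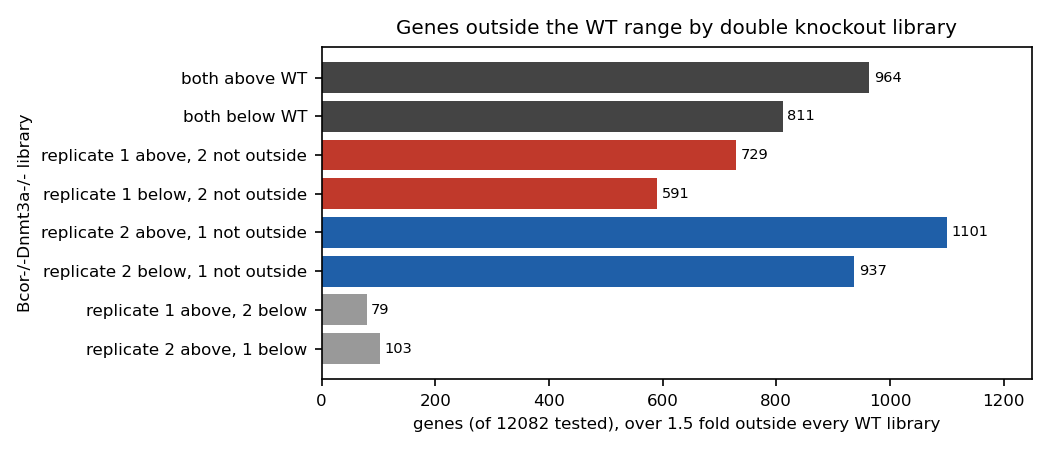
Number of tested genes (x axis) in which the Bcor-/-Dnmt3a-/- LSK libraries lay more than 1.5 fold outside all 3 WT libraries, on the log2(FPKM + 1) scale, by the library and direction (y axis). Both libraries shared 964 genes above and 811 below WT, while 182 genes lay on opposite sides of the WT range.

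The erythroid program was higher in both double mutant libraries. All 13 genes of heme synthesis were called higher and all 13 were above the WT range in both libraries. Of the 19 genes of the red cell membrane, 17 were called higher, 16 of them in both libraries, and 3 of the 4 tested globin genes were called. The globin list gene that was not called was below every WT library in replicate 1 and above them in replicate 2 only. The median log2 difference was 1.68 for heme synthesis, 3.75 for the membrane genes and 7.15 for the globins, beside 0.03 over all tested genes. With 1 of the 5 libraries left out in turn, 13 heme genes, 16 or 17 membrane genes and 3 or 4 globin genes were called.

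The globins themselves showed the widest gap. Hbb-b1, an adult beta globin, had 14.1, 34.8 and 57.8 FPKM in WT and 2825 and 12338 FPKM in the double mutants, a log2 difference of 7.54 ± 0.82 (adjusted p = 0.0086). Hba-a1, an adult alpha globin, had 8.83, 24.4 and 34.6 FPKM against 1810 and 6837 FPKM (7.41 ± 0.76, adjusted p = 0.0077), and Hbb-b2 had 9.999, 16.98 and 17.01 against 969.5 and 3371 FPKM (6.89 ± 0.56, adjusted p = 0.0058). In all 3 genes the lower double mutant library, replicate 1, was more than an order of magnitude above the highest WT library, and replicate 2 was several times higher again. The globin genes have near-identical copies, so the split of reads between single genes is uncertain.

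Heme is built in a chain of enzymes that begins and ends in the mitochondrion. Alas2, the erythroid form of the first and rate-limiting enzyme, had 0.541, 1.57 and 2.01 FPKM in the WT libraries against 120.4 and 469 FPKM in the double mutants (6.71 ± 0.63, adjusted p = 0.0065). Cpox, a later oxidase, had 9.503, 10.02 and 12.9 against 82.6 and 68.4 FPKM (2.70 ± 0.18), and Fech, which inserts the iron, had 16.99, 20.3 and 17.5 against 77.95 and 163 FPKM (2.57 ± 0.32). No group overlapped in these genes, and unlike the globins and Alas2, Cpox was slightly higher in replicate 1 than in replicate 2. The mitochondrial transporter Abcb10 was also higher, with a log2 difference of 2.16 ± 0.18 (adjusted p = 0.0058).

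The membrane genes with the largest increases were low in WT LSK. Slc4a1, the band 3 anion exchanger, had 0.959, 2.35 and 5.47 FPKM in WT and 223 and 437 FPKM in the double mutants (6.49 ± 0.56, adjusted p = 0.0058). Rhag, the Rh-associated glycoprotein, had 1.34, 2.14 and 2.71 FPKM in WT and almost the same level in both double mutant mice, 70.6 and 70.8 FPKM (4.58 ± 0.23, adjusted p = 0.0052). Cldn13 was higher by 4.39 ± 0.31. Epb4.2, the gene of protein 4.2, had 0.463, 0.464 and 0.953 FPKM in WT and 22.0 and 44.4 FPKM in the double mutants. The 2 double mutant libraries were at similar levels for Rhag, while for the globins replicate 2 had several times the level of replicate 1. The 2 genes of this list that were not called were Gypc and Slc14a1, named here after their values were seen.

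The regulators of red cell formation did not move as 1 block. Of 15 erythroid transcription factors, 5 were called higher and 2 lower, with a median log2 difference of 0.23. Klf1, which drives globin and membrane genes, had 1.96, 4.96 and 6.05 FPKM in WT and 52.03 and 35.3 FPKM in the double mutants (3.14 ± 0.42, adjusted p = 0.013). Gata1, the central erythroid factor, had 7.83, 12.1 and 12.9 against 44.1 and 43.5 FPKM (1.93 ± 0.23, adjusted p = 0.0099), with both double mutant libraries at nearly the same level. E2f2, a cell cycle factor of late erythroblasts, was higher by 2.78 ± 0.20 and Klf3 by 1.51 ± 0.12, whereas Zfpm1, the GATA cofactor FOG1, was higher by 1.08 ± 0.22 and outside the WT range by over 1.5 fold in replicate 1 only. Lmo2, a bridging subunit of the GATA1 complex that stem cells also use, was lower, at 538, 485 and 548 FPKM in WT and 126 and 156 FPKM in the double mutants (-1.89 ± 0.15, adjusted p = 0.0058). Nfe2 fell by 1.41 on the same scale, with 148, 155 and 190.1 against 49.04 and 76.1 FPKM.

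Genes of erythropoietin signalling and iron handling moved in both directions, with 5 of 11 and 4 of 13 called higher and 1 and 2 called lower. Epor, the erythropoietin receptor, had 2.99, 3.69 and 5.11 FPKM in WT and 26.5 and 17.4 FPKM in the double mutants (2.21 ± 0.28, adjusted p = 0.011). The feedback gene Socs2 had 1.91, 2.81 and 1.65 against 67.8 and 20.7 FPKM (3.65 ± 0.51, adjusted p = 0.015), and Fam132b, which encodes the iron hormone erythroferrone, had 0.505, 0.331 and 0.549 against 12.9 and 9.57 FPKM. Both double mutant libraries were above WT in 5 of the 11 genes of this pathway, 4 others were above in replicate 2 only (9 were called higher without double mutant replicate 1), and Stat5a, which relays the signal of the receptor, was below WT in both (-0.75 ± 0.13). Tfrc, the transferrin receptor that carries iron into red cell precursors, had 37.3, 40.4 and 35.2 FPKM in WT and 175 and 211 FPKM in the double mutants (2.33 ± 0.14, adjusted p = 0.0052), and the mitochondrial iron importer Slc25a37 had 30.9, 24.6 and 32.8 against 108 and 197 FPKM. Of the 13 iron genes, 3 were above WT in both libraries and 1 below in both, and the median difference from WT was 0.29 in replicate 1 and -0.04 in replicate 2. Tfr2, the second transferrin receptor, was the gene below in both, at 34.7, 29.6 and 39.1 FPKM in WT and 10.4 and 8.59 FPKM in the double mutants (-1.75 ± 0.17, adjusted p = 0.0071). In the list of maturation and autophagy genes 6 of 20 were called higher and 2 lower (4 and 2 without any 1 WT library). By over 1.5 fold, 4 were above WT in both double mutant libraries and 6 in replicate 2 only. Below WT were 1 in both, 1 in replicate 1 only and 1 in replicate 2 only. Trim10 had 0.276, 0.527 and 1.87 against 38.6 and 89.7 FPKM. It passed the filter only through the double mutant libraries, so no test is given for it.

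**Figure D2:**
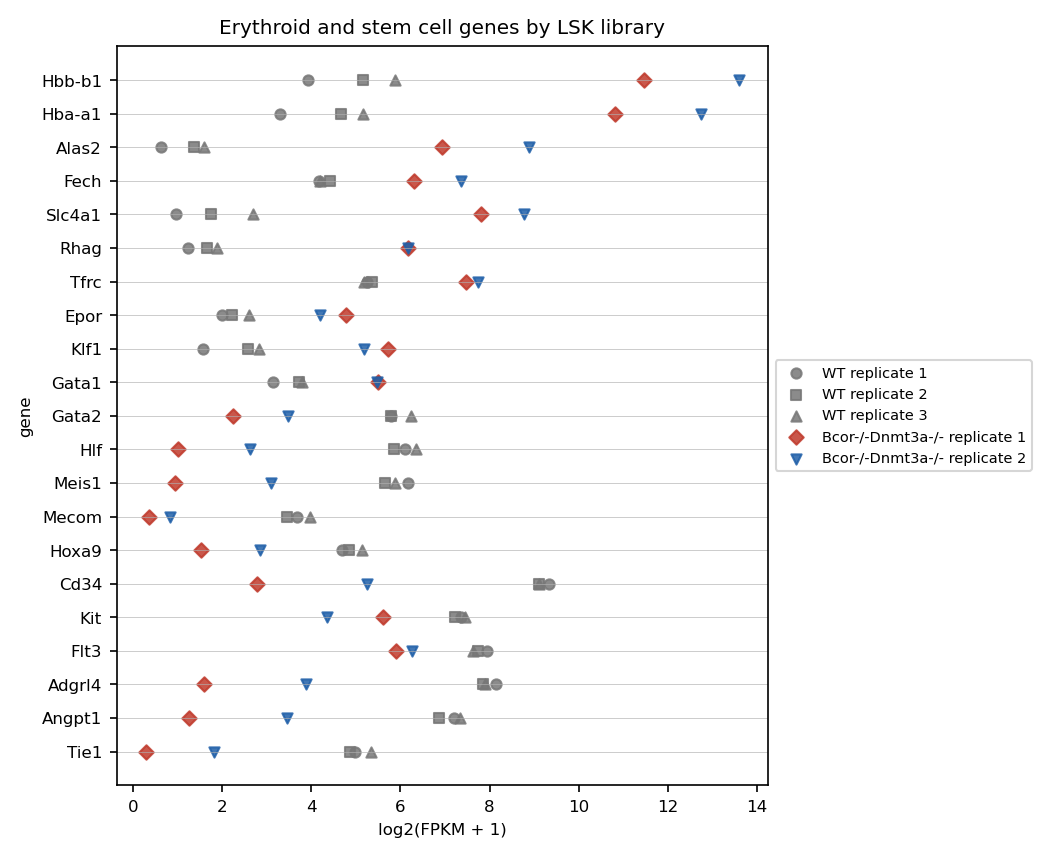
Level of 21 genes (y axis) as log2(FPKM + 1) (x axis) in each LSK library, with grey symbols for the 3 WT libraries and coloured symbols for the 2 Bcor-/-Dnmt3a-/- libraries. The 10 genes from Hbb-b1 to Gata1 lie to the right of WT in both double mutant libraries, and the 11 from Gata2 to Tie1 lie to the left.

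The upstream sequences of the erythroid genes are shown because Gata1 was among the factors that rose. Sites of KLF1 were not searched for, and whether GATA1 acts at these genes was not tested. GATA factors bind short sites with the core GATA. The 250 bases before the start of each gene in RefSeq (build GRCm38.p6, which is not the build of the deposited values) were searched on both strands for AGATAA or for TGATAA, and likewise for AGATAG or for TGATAG, so that a match on the other strand appears as its reverse complement. Of the 36 tested globin, heme synthesis and membrane genes, 23 had a promoter in the table, with 25 promoters in all, and 11 promoters (44.0%) held a match. The share was 17.4% (2048 of 11770) over the promoters of all tested genes, 20.8% for genes called higher with both libraries above WT, and 21.6% for genes called lower with both below. It was 24.2% (8 of 33) for the stem cell regulators and endothelial-like genes, most of which were lower. A match is a stretch of letters, not a shown binding site. Of the 11 stretches, 6 follow, from 25 bases before to 25 bases after the matches where the window allows, with the matches in capitals and each read 5′ to 3′ on the strand of the gene.
Alas2, chrX:150547306-150547361, plus strand: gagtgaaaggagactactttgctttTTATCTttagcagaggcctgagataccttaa
Hba-a1, chr11:32283464-32283519, plus strand: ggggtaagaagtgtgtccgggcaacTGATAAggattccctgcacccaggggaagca
Rhag, chr17:40811093-40811148, plus strand: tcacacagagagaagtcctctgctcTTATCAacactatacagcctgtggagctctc
Rhd, chr4:134864468-134864523, plus strand: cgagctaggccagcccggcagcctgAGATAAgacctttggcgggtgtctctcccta
Kel, chr6:41704326-41704406, minus strand: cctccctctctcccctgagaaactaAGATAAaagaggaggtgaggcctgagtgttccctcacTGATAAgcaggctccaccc
Cpox, chr16:58670092-58670152, plus strand: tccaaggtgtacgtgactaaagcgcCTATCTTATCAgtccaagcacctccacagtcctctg
In Rhag the match began 31 bases before the start, in Rhd 43 and in Alas2 86, while that of Hba-a1 lay 183 bases away. Kel held 2 matches, 56 and 19 bases before its start, and in Cpox 2 matches shared a base.

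The stem cell program was lower in both double mutant libraries. Of 19 transcription regulators of stem cells, 14 were called lower and none higher, 12 of them below WT in both libraries, with a median log2 difference of -2.07. Fitted without double mutant replicate 1 or 2, 16 and 14 were called lower and 1 was called higher in each case. Hlf, a factor that marks the most primitive stem cells, had 67.6, 57.1 and 80.5 FPKM in WT and 1.01 and 5.18 FPKM in the double mutants (-4.29 ± 0.48, adjusted p = 0.0091). Meis1, the partner of HoxA9, had 70.5, 49.4 and 58.1 against 0.9303 and 7.53 FPKM (-3.88 ± 0.63, adjusted p = 0.019), and Mecom, the locus of EVI1, 11.8, 9.97 and 14.8 against 0.278 and 0.789 FPKM (-3.11 ± 0.27, adjusted p = 0.0058). Gata2, the factor that GATA1 replaces, was at 54.7, 54.1 and 74.5 FPKM in the WT libraries against 3.74 and 10.1 FPKM (-3.08 ± 0.39, adjusted p = 0.011), so that Gata1 exceeded Gata2 in both double mutant libraries and was below it in all 3 WT libraries. In each of these genes replicate 2 lay between replicate 1 and WT. Mycn, which acts beside Myc in stem cells, changed by -2.68 ± 0.30.

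The Hox genes did not all fall. Of 13 tested HoxA and HoxB genes, 6 were called lower, all in the HoxA cluster, and none higher. Hoxa9, the self-renewal factor, had 24.6, 27.7 and 34.4 FPKM in WT and 1.87 and 6.21 FPKM in the double mutants (-2.70 ± 0.41, adjusted p = 0.018), and Hoxa10 had 6.52, 6.696 and 10.4 against 0.636 and 1.46 FPKM (-2.12 ± 0.31, adjusted p = 0.016). Hoxa5, Hoxa6 and Hoxa3 were lower too, with log2 differences of -1.85, -1.83 and -1.47. By library, they differed from the WT mean by -2.60, -2.65 and -1.92 in replicate 1 and by -1.09, -1.01 and -1.01 in replicate 2. Hoxb7 and Hoxb8, named after their values were seen, were above the WT range in replicate 1 only. By the adjusted p, 3 of the 6 calls held. Without double mutant replicate 2, 8 were called lower and 3 higher, and without WT replicate 1, 4 were lower.

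Of the 2 antigens that define the LSK gate, Kit was lower and Ly6a was not called. Kit, the stem cell factor receptor, had 164, 148 and 174 FPKM in WT and 47.7 and 19.4 FPKM in the double mutants (-2.37 ± 0.37, adjusted p = 0.019), with both double mutant libraries below every WT library. Ly6a, which encodes Sca1, the other antigen, had 66.03, 70.7 and 59.8 FPKM in WT and 63.5 and 220.2 FPKM in the double mutants (0.85 ± 0.51, adjusted p = 0.31), so replicate 1 was within the WT range and only replicate 2 above it. Of 19 stem and progenitor surface genes, 7 were called lower, 4 higher (2 without WT replicate 1) and 8 were not called. Cd34, a surface sialomucin of early progenitors, had 649.7, 551 and 548 FPKM in WT and 5.87 and 37.3 FPKM in the double mutants (-5.17 ± 0.70, adjusted p = 0.013). Procr, the stem cell marker EPCR, changed by -3.06 ± 0.61, and Cd27 had 136, 110.1 and 138 against 8.51 and 28.9 FPKM. In bulk RNA a change in the number of cells of a type and a change in RNA per cell cannot be told apart. This holds for every list above and below, the erythroid and stem cell lists among them.

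A set of genes shared by stem cells and endothelium was lower as well. Of 15 tested genes, 9 were called lower and none higher, and all 9 were below WT in both libraries, with a median of -2.29. Adgrl4, an adhesion receptor of vessels and stem cells, had 281, 231 and 237 FPKM in WT and 2.02 and 13.8 FPKM in the double mutants (-5.22 ± 0.65, adjusted p = 0.011), the largest decrease among the genes called and below in both libraries. Angpt1, the ligand of TIE2, had 146, 116 and 161 against 1.39 and 9.89 FPKM (-4.78 ± 0.63, adjusted p = 0.013), and Tie1 30.7, 28.4 and 39.7 against 0.228 and 2.54 FPKM (-4.01 ± 0.47, adjusted p = 0.0096). Emcn and Esam, both surface markers of stem cells, changed by -3.32 and -2.84. Among the secreted and adhesion genes of stem cells 5 of 15 were lower, among them Ltbp3, which holds latent TGF-beta, at 22.8, 18.4 and 22.1 against 0.673 and 5.49 FPKM, and 1, the receptor Tgfbr2, was higher by 1.07 ± 0.18. By over 1.5 fold, 4 of this list were below WT in both libraries and 1 above in both. In replicate 1 only, 2 were above WT and 2 below, and 1 was below in replicate 1 and above in replicate 2.

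Other genes with large decreases in both libraries had different roles. Slc22a3, an organic cation transporter, had 59.5, 53.6 and 57.9 FPKM in WT and 1.07 and 2.15 FPKM in the double mutants (-4.50 ± 0.21, adjusted p = 0.0052). Dntt, the terminal transferase of early lymphoid progenitors, had 309, 333 and 219.7 against 2.58 and 75.5 FPKM (-4.10 ± 1.25, adjusted p = 0.09), a spread of more than an order of magnitude between the 2 double mutant mice. Myct1, the transcript 9030619P08Rik and Gcnt2, which makes the branched I antigen, changed by -4.27, -4.16 and -3.80. Megakaryocyte genes, which stem cells share in part, were lower in 8 of 15 tested cases, as Itga2b showed at 47.2, 45.2 and 48.3 against 3.67 and 18.9 FPKM, and 1 was higher, Clec1b. Without double mutant replicate 2, 12 were called lower, and without replicate 1, 3 were called higher. Their summed level was 326, 294 and 340.4 FPKM in WT and 66.96 and 194 FPKM in the double mutants. Of the genes of mast cells, basophils and eosinophils 5 of 8 were lower, led by Cpa3 at 36.5, 43.6 and 50.5 against 0.792 and 5.77 FPKM (-3.66 ± 0.56, adjusted p = 0.018). The eosinophil granule genes Prg2 and Epx, named after their values were seen, were above WT in replicate 2 only, with 191, 232 and 205 against 140.4 and 824 FPKM for Prg2. The list summed to 324, 432 and 492 FPKM in WT and 173 and 914 FPKM in the double mutants, so that replicate 1 was below and replicate 2 above every WT library.

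Summed markers of erythroblasts and of B cells were also higher in both double mutant libraries, although the lineage gate is meant to remove such cells. The 11 erythroblast markers in the table summed to 469.97, 514 and 622 FPKM in WT and 7484 and 24798 FPKM in Bcor-/-Dnmt3a-/- LSK, and all 11 were called higher. The 12 B cell markers summed to 56.3, 129 and 50.03 FPKM in WT and 4209 and 1389 FPKM in the double mutants, and 8 of 12 were called higher, 7 of them above WT in both libraries, and 12 were called higher without double mutant replicate 2. Cd79a, a subunit of the B cell receptor, had 4.46, 16.2 and 4.196 against 736 and 466 FPKM (6.22 ± 0.58, adjusted p = 0.0065). Pax5, the factor that commits cells to the B lineage, had 0.737, 0.6304 and 0.468 against 102 and 48.4 FPKM. The genes of the pre-B cell receptor and of V(D)J recombination split the libraries. Vpreb1 had 4.803, 16.4 and 3.26 FPKM in WT and 878 and 1.88 FPKM in the double mutants, and Igll1 4.65, 18.3 and 2.78 against 996 and 1.604 FPKM, while Rag1 and Vpreb2 were listed at 0 in replicate 2. By contrast Ms4a1, the CD20 gene of mature B cells, was higher in replicate 2, with 0.304, 1.16 and 0 against 20.9 and 154 FPKM. The part of these markers in the erythroid and stem cell results was not tested.

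Of 14 T and NK cell markers, 13 were called higher and 1 lower, and 12 were above WT in both libraries. Of these, Cd3d, Cd3e, Cd3g, Cd8a, Cd8b1 and Prf1 passed the filter only through the double mutant libraries, so the count follows in part from the filter. Cd3e, a chain of the T cell receptor complex, had 0.151, 0.517 and 0 FPKM in WT and 8.03 and 20.4 FPKM in the double mutants, and Cd3g had 0.224, 0.766 and 0.855 against 12.3 and 57.3 FPKM. The summed level was 232, 259 and 233 FPKM in WT and 189 and 641 FPKM in the double mutants, below WT in replicate 1 and above it in replicate 2. Nkg7, the most abundant gene of the list in WT, was lower (214, 228 and 207 against 56.8 and 162 FPKM). MHC class II genes, which B cells, macrophages and dendritic cells carry, were called higher in 6 of 8 cases and above WT in both libraries in 6. Cd74, the invariant chain, had 189, 414 and 141 against 1054 and 2723 FPKM (2.92 ± 0.60, adjusted p = 0.035). WT replicate 2 was the highest WT library here, as it was for the neutrophil markers, which summed to 2111, 10444 and 1916 FPKM in WT and 8344 and 6928 FPKM in the double mutants and therefore overlapped. The overlap came from WT replicate 2, and both double mutant sums were above WT replicates 1 and 3. All 11 tested neutrophil genes had a positive log2 difference, and 2 were called.

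**Figure D3:**
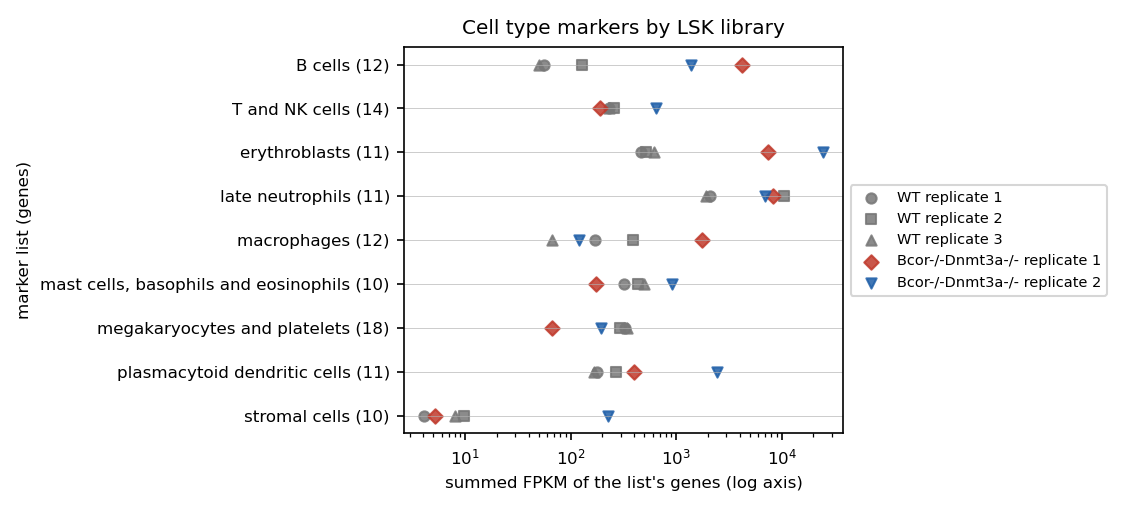
Summed FPKM of marker genes of other blood and marrow cells (x axis, log scale) in each LSK library, by list (y axis). B cell and erythroblast sums lie above WT in both Bcor-/-Dnmt3a-/- libraries, and macrophage sums in replicate 1 only.

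Macrophage markers were high in 1 double mutant library alone. They summed to 172, 388 and 66.1 FPKM in WT and 1769 and 121 FPKM in the double mutants, and 10 of 12 were above WT by over 1.5 fold in replicate 1 and not outside it by that fold in replicate 2. C1qa, a chain of complement C1q, had 22.02, 61.4 and 6.93 FPKM in WT and 360.3 and 7.38 FPKM in the double mutants. A further pair of lists was written after the values were seen, from genes that stood out in replicate 2, so their high level there follows from the choice and is only described. Genes of plasmacytoid dendritic cells summed to 177, 268 and 169 FPKM in WT and 402 and 2440 FPKM in the double mutants, and Siglech had 0.858, 10.5 and 1.96 against 3.27 and 347 FPKM. Stromal genes summed to 4.13, 9.697 and 8.07 FPKM in WT and 5.18 and 227 FPKM in the double mutants. Cxcl12, the chemokine that holds stem cells in their niche, had 2.43, 6.56 and 5.24 FPKM in WT and 1.68 and 65.8 FPKM in the double mutants.

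The lymphoid and myeloid genes of early progenitors showed a mixed picture. Of 15 tested genes of lymphoid priming, 6 were called higher and 2 lower, and 8 and 4 without double mutant replicate 1. Il7r, the interleukin 7 receptor, had 2.58, 5.83 and 2.71 against 194 and 32.7 FPKM (4.18 ± 0.78, adjusted p = 0.027), and Tcf7, a factor of early T cells, had 2.23, 3.94 and 1.42 against 30.4 and 60.8 FPKM (3.70 ± 0.42, adjusted p = 0.0093). Flt3, the receptor of lymphoid-primed progenitors, was lower in both libraries, at 247, 213 and 197 FPKM in WT and 58.4 and 76.2 FPKM in the double mutants (-1.69 ± 0.17, adjusted p = 0.0077). Among 14 myeloid factors and receptors, in the fit of all 5 libraries, Irf4 was called higher (1.95, 5.04 and 2.25 against 29.6 and 131 FPKM) and Csf3r, the G-CSF receptor, lower (69.2, 57.2 and 57.6 against 12.4 and 15.8 FPKM). The median difference from WT was -0.12 in replicate 1 and 1.04 in replicate 2, and 7 genes were called higher and 1 lower without replicate 1, against 2 and 4 without replicate 2. Of 11 primary granule genes 2 were called lower and none higher, near the 11.3% of all genes, and 7 were below WT in replicate 1 only, beside 4.89%. Without replicate 2, 7 of them were called lower, without replicate 1, 1, and without any 1 WT library none.

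Several programs separated the 2 double mutant libraries instead of joining them. Of the 19 immediate early genes, which answer within minutes to stress or growth factors, 13 were below every WT library by over 1.5 fold in replicate 1 and 11 above every WT library by that fold in replicate 2, beside 12.5% and 17.9% of all tested genes. By any margin these counts were 16 and 13, beside 37.1% and 42.9%. The median difference from the WT mean was -1.81 in replicate 1 and 1.68 in replicate 2, and 2 of 19 genes were called, both lower. Atf3, a stress-induced factor, had 50.7, 25.7 and 26.4 FPKM in WT and 2.25 and 405 FPKM in the double mutants. Fosb had 428, 197 and 253 against 25.4 and 891 FPKM, and Klf6 140.2, 104 and 134 against 20.05 and 448 FPKM. Tnfaip3, an inhibitor of NF-kappaB that is not on the list, had 71.8, 40.5 and 49.3 against 12.1 and 523 FPKM. In each of these genes the WT libraries lay between the 2 double mutant libraries. Ier3 was below WT in both, at 146, 104 and 117 against 3.32 and 38.3 FPKM (-3.23 ± 0.90, adjusted p = 0.075).

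**Figure D4:**
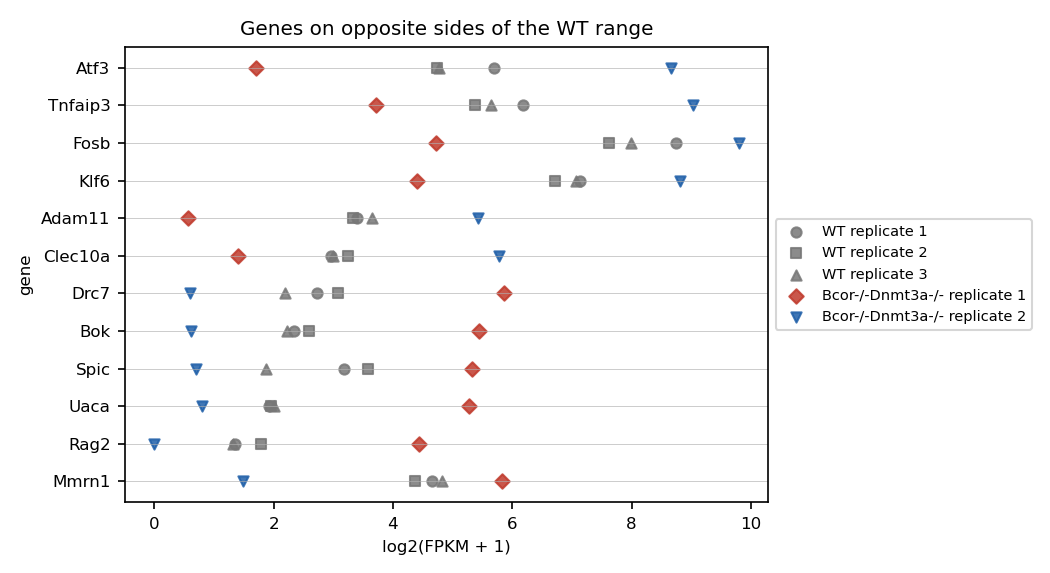
Level as log2(FPKM + 1) (x axis) in each LSK library of the 12 genes (y axis) with the widest gap between the Bcor-/-Dnmt3a-/- libraries among genes that lay more than 2 fold above every WT library in 1 of them and more than 2 fold below in the other. In the 6 upper genes replicate 2 is the high library, and in the 6 lower genes replicate 1.

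In the other direction, Rag2, the partner of RAG1, had 1.54, 2.44 and 1.502 FPKM in WT and 20.7 and 0 FPKM in the double mutants, and Spic, a factor of iron-recycling macrophages, had 8.03, 10.96 and 2.66 against 39.2 and 0.614 FPKM. Bok, a pro-apoptotic relative of Bax, had 4.09, 5.02 and 3.65 against 42.3 and 0.533 FPKM. These genes were high in replicate 1 and low in replicate 2. Drc7, Uaca and Mmrn1 had the same order, and Adam11 and Clec10a the reverse.

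Proliferation genes showed a smaller split, mostly under the fold of 1.5 in replicate 1. Of 27 DNA replication genes, 5 were above all WT libraries by over 1.5 fold in replicate 1 and 14 below them in replicate 2, beside 14.7% and 15.1% of all tested genes. By any margin the counts were 24 and 22, beside 41.6% and 40.4%, with medians of 0.29 and -0.69 from the WT mean. Of 22 mitosis genes, 2 were above in replicate 1 and 9 below in replicate 2 by over 1.5 fold, and 20 and 17 by any margin, with medians of 0.39 and -0.57. In the fit of all 5 libraries, 3 of the 27 replication genes and 1 of the 22 mitosis genes were called, beside 24.4% of all tested genes. Ccne1, cyclin E1, was called higher and above WT in both libraries, at 5.67, 7.59 and 8.005 FPKM in WT and 38.2 and 24.3 FPKM in the double mutants (1.97 ± 0.25, adjusted p = 0.011). Mki67, a marker of cycling cells, was the mitosis gene called higher, at 94.7, 97.5 and 90.2 against 185 and 130.4 FPKM (0.72 ± 0.18, adjusted p = 0.054). Both double mutant libraries were above every WT library for Mki67, by over 1.5 fold in replicate 1 only. Among the D cyclins, Ccnd1 and Ccnd3 were called higher and Ccnd2 lower. Ccnd3, the D cyclin that red cell precursors use, had 68.03, 93.2 and 72.2 against 329 and 122 FPKM (1.37 ± 0.43, adjusted p = 0.098), and Ccnd2 47.8, 51.01 and 52.4 against 17.4 and 30.99 FPKM (-1.08 ± 0.25, adjusted p = 0.046). Rb1, the retinoblastoma gene, was higher in both libraries, at 11.1, 12.5 and 11.8 against 27.5 and 41.8 FPKM. Cdkn2a, the p16 and p19 locus, was listed at 0 in all WT libraries and at 11.1 and 0.887 FPKM in the double mutants.

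The survival and p53 genes were examined because the study asks about cell death in these leukaemias. Trp53 had 107, 97.7 and 112.3 FPKM in WT and 84.6 and 60.3 FPKM in the double mutants (-0.56 ± 0.18, adjusted p = 0.1), with a fitted difference under the fold of 1.5 and replicate 2 alone below every WT library by more than that fold. Fitted without double mutant replicate 1 it was called, at -0.80. Its inhibitor Mdm2 had 31.8, 29.1 and 34.1 against 26.4 and 49.4 FPKM (0.19 ± 0.27, adjusted p = 0.68), with replicate 1 below and replicate 2 above WT. Bid had 35.4, 35.7 and 34.8 against 28.1 and 41.2 FPKM and Bak1 40.98, 49.1 and 45.9 against 55.1 and 35.8 FPKM, and neither was called. Bcl2 had 19.98, 21.5 and 22.5 against 13.9 and 38.2 FPKM and Parp1 119, 116 and 109 against 213 and 80.1 FPKM, and the 2 double mutant libraries lay on either side of the WT values in both. Of 21 p53 genes 6 were called higher and 1 lower, beside 13.1% and 11.3% of all genes, and without double mutant replicate 1 these counts were 11 and 2. Bcl2l1, the BCL-XL gene that protects erythroblasts, was higher in both libraries, at 9.08, 9.39 and 10.5 against 35.1 and 39.7 FPKM (1.85 ± 0.14, adjusted p = 0.0058). So were the pro-apoptotic genes Bmf, at 1.198, 1.37 and 1.08 against 19.4 and 12.9 FPKM (2.93 ± 0.25, adjusted p = 0.0058), and Pmaip1, the NOXA gene, at 4.92, 5.11 and 4.29 against 10.4 and 63.6 FPKM (2.24 ± 0.71, adjusted p = 0.10).

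Polycomb subunits and enzymes of DNA methylation were listed because the deleted genes belong to them, and the share called over all genes was 24.4%. Of 10 PRC1.1 subunits 1, Skp1a, was called, and it was lower, with a median over the list of -0.05. Of 19 PRC2 and canonical PRC1 subunits 2 were called higher and 3 lower, with a median of -0.04, and 6 and 6 without double mutant replicate 1. Among 7 tested DNA methylation enzymes 3 were called lower and none higher, with a median of -0.51, and 1 of the 3 was the deleted gene Dnmt3a itself. Without double mutant replicate 1, 5 were called lower. Dnmt3b, the second de novo methyltransferase, had 34.3, 28.4 and 30.3 FPKM in WT and 7.12 and 5.98 FPKM in the double mutants (-2.08 ± 0.15, adjusted p = 0.0058), and Tet1, a methylcytosine dioxygenase, had 9.203, 5.79 and 7.54 against 3.12 and 1.51 FPKM (-1.38 ± 0.31, adjusted p = 0.044).

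Of 26 interferon-stimulated genes 9 were called higher and 3 lower, beside 13.1% and 11.3% of all genes. Isg20, an exonuclease, had 15.2, 24.1 and 24.5 FPKM in WT and 85.6 and 141 FPKM in the double mutants (2.35 ± 0.31, adjusted p = 0.012), and Irf7 had 17.6, 18.4 and 17.1 against 89.2 and 58.3 FPKM (1.97 ± 0.20, adjusted p = 0.0077). The 3 lower genes were the membrane restriction factors Ifitm1, Ifitm2 and Ifitm3, of which Ifitm1 had 398, 309.5 and 341 against 20.4 and 56.7 FPKM (-3.31 ± 0.42, adjusted p = 0.011). Fitted with double mutant replicate 2 alone, 7 genes of this list were called higher and 10 lower, and with replicate 1 alone 14 higher and 3 lower.

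Among metabolic genes, glycolysis had 3 of 22 genes called higher and 6 lower. By over 1.5 fold, 3 were above WT in both double mutant libraries and 2 in replicate 2 only. Below WT were 4 in both, 3 in replicate 1 only and 1 in replicate 2 only. The median difference from WT was -0.62 in replicate 1 and -0.02 in replicate 2. Pklr and Bpgm, the red cell forms of pyruvate kinase and bisphosphoglycerate mutase, were higher, at 1.99, 4.51 and 2.87 against 31.3 and 17.04 FPKM and 16.4, 14.7 and 16.5 against 43.5 and 169 FPKM. Tpi1, triosephosphate isomerase, was lower, at 252, 244 and 258 against 116 and 127 FPKM (-1.04 ± 0.11, adjusted p = 0.0084). In the amino acid response 8 of 23 genes were called higher and 2 lower (13 and 3 without double mutant replicate 1, 5 and 4 without replicate 2), among them Atf5 at 5.002, 3.73 and 3.72 against 13.4 and 44.1 FPKM, and Eif2ak1, the heme-regulated kinase, was higher by 1.17 ± 0.16. Of 18 cholesterol synthesis genes none was called by limma, and 1 had an unadjusted p under 0.05 whatever the fold. The double mutant libraries differed here, with medians of -0.49 in replicate 1 and 0.15 in replicate 2, and 5 genes were called higher without replicate 1 and 5 lower without replicate 2. Oxidative phosphorylation, with 3 of 74 genes called, the proteasome, with 3 of 47, and the cytosolic ribosomal proteins, with 5 of 77, were all far under the 24.4% called over all genes. All 5 ribosomal calls were lower, but the list split the libraries, with medians of -0.19 in replicate 1 and 0.21 in replicate 2. These medians were 0.20 and 0.08 for oxidative phosphorylation and 0.18 and -0.02 for the proteasome.

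Of the 12 largest increases shared by both libraries, 9 were globin, heme, membrane or B cell genes, and the others were Snora64, Fcmr and Gimap4. Fcmr, the IgM Fc receptor, had 0.145, 0.826 and 0.551 FPKM in WT and 28.98 and 258 FPKM in the double mutants. It passed the filter only through the double mutant libraries, so no test is given for it. Gimap4, a GTPase of lymphocytes, had 3.44, 7.77 and 4.29 against 318 and 204 FPKM (5.44 ± 0.35, adjusted p = 0.0052). Snora64, a small nucleolar RNA, was listed at 0 in every WT library and at 117 and 134 FPKM in the double mutants, so no fold is given. Its high values were not confined to the double mutants. It was listed at 0 and 80.5 FPKM in Bcor-/- LSK and at 275, 216 and 83.4 FPKM in Dnmt3a-/- LSK. In WT MEP it was listed at 0, 0 and 100.5 FPKM.

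**Figure D5:**
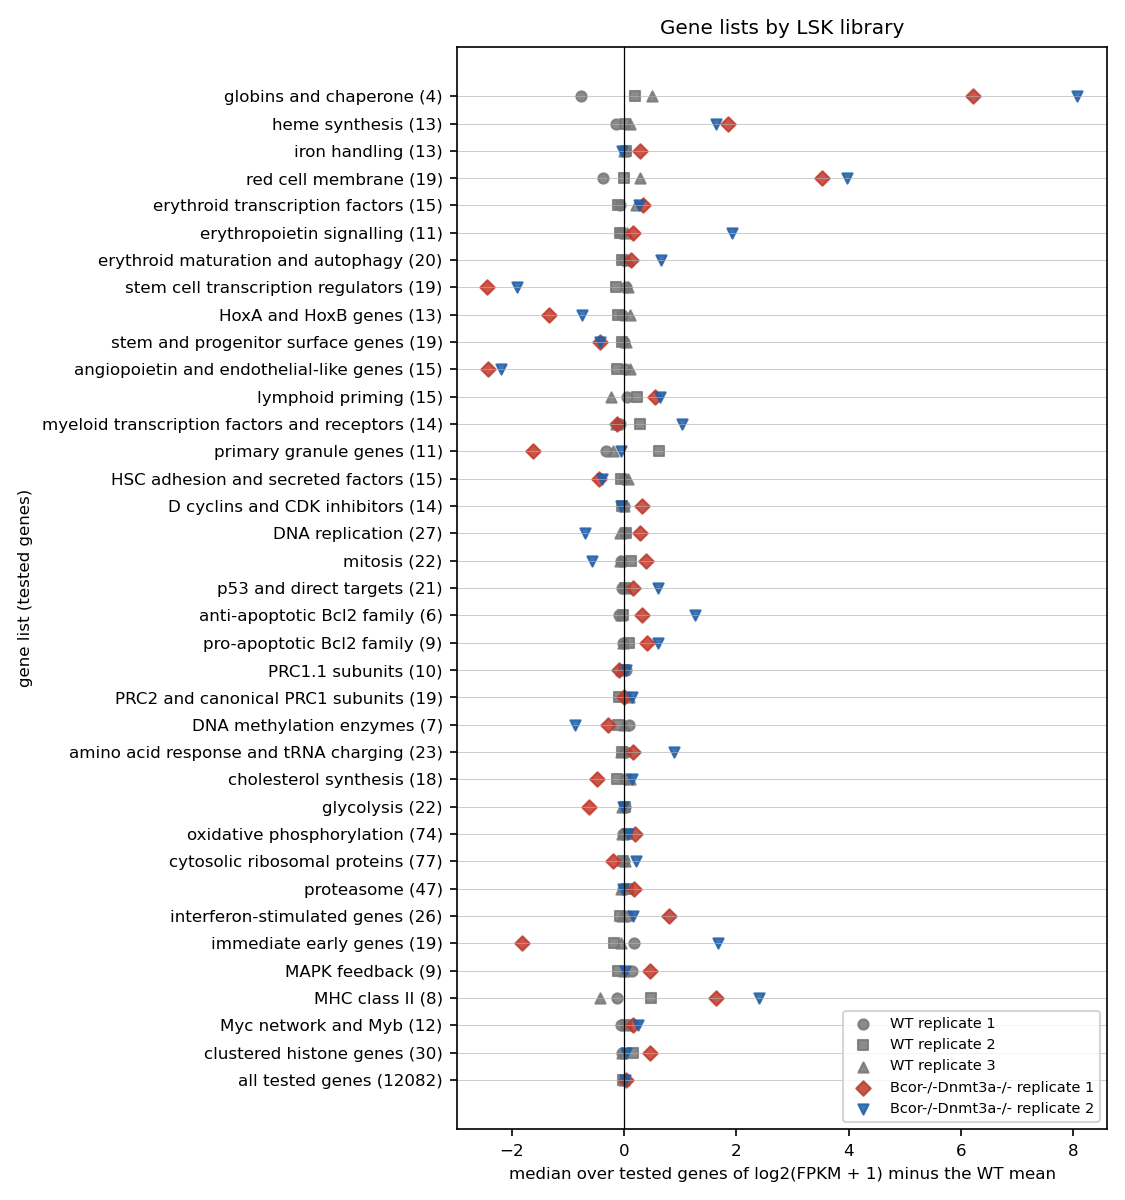
Median difference from the WT mean in log2(FPKM + 1) (x axis) of each gene list and of all tested genes (y axis, with the number of tested genes), by LSK library. Globin, heme synthesis, red cell membrane and MHC class II lists lie to the right in both Bcor-/-Dnmt3a-/- libraries and the stem cell, HoxA and HoxB and endothelial-like lists to the left, while immediate early, DNA replication and mitosis lists place the 2 libraries on opposite sides.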

How the data were processed

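Total RNA of sorted LSK cells was sequenced, and its FPKM, as computed by the authors, came in 1 table for each cell type. Per the labels' processing notes, STAR 2.5.1b, SAMtools 1.9 and Cufflinks 2.2.1 were used with the mm9 build, and how the libraries were scaled to each other is not given in the sources used here. An FPKM of 0 can be a failed estimate. FPKM of the 5 LSK libraries were converted to log2 with a pseudocount of 1, genes with a mean under 1 FPKM were left out, and limma 3.58.1 (R 4.3.3) with a mean-variance trend compared 2 Bcor-/-Dnmt3a-/- with 3 WT libraries. The call (unadjusted p under 0.05, fold change above 1.5) follows the study's methods. The procedure was tested on simulated data in which all 5 libraries had a spread taken from the WT libraries. That test does not cover the wider spread between the 2 double mutant libraries. Named genes are up to 5 called genes per list and direction, the 12 largest shared changes per direction, the 6 widest opposed genes per library, 14 fixed names and marker genes, and some of these are not reported here. Members, lists and rule were chosen with earlier results of these data known. The alternatives tried were another pseudocount, filter, scaling, fold, adjusted p, variance model, replicate block and sample set. After the values were seen, the named genes tabulated under these alternatives were limited to called genes and the 14 fixed names, and the other named genes, described by their FPKM alone, were left out, among them genes whose fitted difference changed sign between settings. Plots used matplotlib 3.10.9 under Python 3.11.15. Read counts were not used here, so no counting error was computed.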

Additional observations from a re-analysis of the deposited data

Results flagged for a closer look

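The MEP table of the same mice was not used in the comparison. Sums of cell type markers there were set beside the WT MEP libraries, and values above 3 times the highest WT MEP library are given. B cell markers summed to 3446 FPKM in double mutant MEP replicate 1, against 39.8 to 234 FPKM in WT MEP. Macrophage markers summed to 933 FPKM in the same library, against 7.72 to 11.7 FPKM. Late neutrophil markers summed to 7112 and 16605 FPKM in double mutant replicates 1 and 2, against 311 to 575 FPKM. In replicate 2, T and NK cell markers summed to 416 FPKM, against 57.2 to 81.7 FPKM, and erythroblast markers to 102390 FPKM, against 4853 to 7063 FPKM. Hbb-b1 is listed at 0 in that library, where Hba-a1 is listed at 55204 FPKM and Hbb-b2 at 30050 FPKM, so the sum leaves out an adult beta globin. Stromal genes, a list written from genes high in LSK replicate 2, summed to 30.2 FPKM in MEP replicate 2 of the same mouse, against 0.728 to 1.64 FPKM. The mouse with high B cell and macrophage sums in LSK (replicate 1) thus had high sums of both in MEP. It is the mouse whose LSK and MEP libraries had r = 0.975. Double mutant replicate 2 also had a high B cell sum in LSK, 1389 FPKM. Its B cell sum in MEP was 156 FPKM, within the WT MEP range.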

How the results depend on the processing

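The count of called genes moved by over 1.5 times in 3 settings. It was 1702 (917 higher, 785 lower) with the adjusted p, 1826 (1031 higher, 795 lower) with a fold change above 2, and, leaving out each library in turn, 2256 to 4720 (1217 to 2521 higher, 1034 to 2199 lower), with the top of the range reached without double mutant replicate 1. With the replicate block, 2034 genes were called, 871 of them lower, and 6 by the adjusted p. The replicate numbers only name the mice, and each LSK library is from a different mouse, so the main fit used no pairing. Deviations of same-numbered samples had r = 0.01 and -0.06 over genes, which is a description and not a test of pairing. Weights by genotype gave 2393 calls, 605 by the adjusted p. Quantile normalization moved the median of all genes from 0.03 to -0.08 and the share of higher calls from 53.6% to 43.8%, and centring on the median gave 44.6%. Genes above and below WT in both libraries numbered 549 and 411 with a 2 fold limit, 523 were below with a minimum mean of 5 FPKM, and without 1 WT library the counts were 1028 to 1195 above and 875 to 932 below. The naming rule gave 202 called genes. None of them changed sign in any setting in which it was tested. They were chosen as called genes, so this follows in part from the choice. With a minimum mean of 5 FPKM, 180 of them were tested. The call was lost by 57 with the adjusted p, 37 with a fold change above 2 and 33 with the replicate block. Without WT replicate 1, 2 and 3 it was lost by 29, 22 and 31. Of the fixed names that were not called, some changed sign. Over the fits that left out 1 library, log2 differences ranged from -0.35 to 0.27 for Bcor, -0.32 to 0.22 for Bid, -0.51 to 0.89 for Parp1, -0.042 to 1.74 for Ly6a, -0.25 to 0.63 for Mdm2, -0.33 to 0.28 for Bak1 and -0.58 to 0.82 for Bcl2. With quantile normalization Bcl2 was at -0.013. The depth behind the FPKM values is unknown.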
